A study of Homo sapiens with 6 samples.

Results

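A group of 9 secreted factors that endothelial and other cells make or sense when oxygen is low was examined among the 62700 annotated genes of SK-Hep1 cells, a human liver tumor line. The members, chosen by gene symbol, were the vascular endothelial growth factor (VEGF) ligands *VEGFA*, *VEGFB*, *VEGFC* and *PGF*, the vasoactive peptides *ADM* (adrenomedullin) and *APLN* (apelin), the lipase inhibitor *ANGPTL4*, and the stanniocalcins *STC1* and *STC2*. RNA–Seq covered 3 control libraries, titled shControl with the genotype label WT, and 3 libraries titled shRAB30-DT with the genotype label RAB30-DT knockdown. According to the methods, SK-Hep1 cells were transduced with lentiviral pLKO.1 vectors and kept as stable lines after puromycin selection, with control vectors made alongside, although the genotype label of the control libraries names no vector. The methods name more than 1 shRNA against the lncRNA *RAB30-DT*, and the labels do not say which was used or whether the replicates were separate cultures, so p-values measure only the spread between these libraries. Of the 9 members, 7 had a mean of at least 1 TPM (a relative transcript level, corrected for length and for the size of the library) and were tested, whereas *PGF* and *STC1* were below this filter.

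VEGF ligands are secreted dimers that bind receptor tyrosine kinases on endothelial cells and drive the growth of blood and lymphatic vessels. When oxygen falls, the α subunits of the hypoxia-inducible factors (HIF) escape degradation, pair with ARNT and bind short DNA elements with the core ACGTG or GCGTG near their target genes. *VEGFA*, *ADM*, *APLN*, *ANGPTL4* and the stanniocalcins are known targets of this route, whereas *VEGFB* is known for responding little to oxygen.

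Promoter windows were taken from RefSeq on GRCh38.p14, from 250 bases before to 50 bases after a start site, and were matched for 7 members, all but *VEGFA* and *STC1*. Each of these 7 genes had at least 1 match to the hypoxia core, searched as ACGTG and GCGTG on both strands, where 48.4% of all 35116 windows hold one. Matches are shown for the tested members (for *STC2* only 1 of 3), 5′ to 3′ on the strand of the gene. The core of the match shown is in capitals (CACGT and CACGC are the cores read on the opposite strand). They describe the sequence only, and were not tested for binding.
*APLN*, chrX:129655109-129655133, minus strand: ctctcgcgctCACGCtcgggctggg
*APLN*, chrX:129655084-129655108, minus strand: gctgcagagtGCGTGcctggagggg
*ADM*, chr11:10304962-10304986, plus strand: gcaggagcgcGCGTGgctgaggaaa
*ANGPTL4*, chr19:8363911-8363935, plus strand: aaagaagagtCACGTctcccacggt
*VEGFB*, chr11:64234513-64234537, plus strand: ggtggggagcGCGTGtctgggtcac
*VEGFC*, chr4:176792967-176792991, minus strand: ccgggctcggCACGCtccctccctc
*STC2*, chr5:173328622-173328646, minus strand: gcacgcaaacGCGTGgccgccgcca
The cores begin 167 and 142 bases before the start site in *APLN*, 101 in *ADM*, 234 in *ANGPTL4*, 61 in *VEGFB*, 59 in *VEGFC* and 222 in *STC2*, the last being 1 of 3 matches there. Another of the 3, a CACGC that begins 231 bases before the start site, lies in lower case within the stretch shown. No window of these 7 genes held the AP-1 element, searched as TGACTCA and TGAGTCA on both strands, which 4.95% of all windows hold.

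Values of single libraries are given in the order of replicates 1, 2 and 3. The targeted *RAB30-DT* had 18.16, 11.51 and 13.91 TPM in control against 11.94, 10.85 and 6.5 TPM in knockdown libraries, so the groups overlapped, with a log2 fold change of −0.55 (standard error 0.27, adjusted p = 0.355 from limma). The paper reports a separate check of the knockdown by qPCR in this cell line. Between 13732 and 14094 genes reached 1 TPM in each library, and the read depth behind the TPM is unknown. Control replicate 3 stood apart from the other libraries: at TPM + 1, 132 tested genes were there over 2 times the highest of the other 5 libraries, against 34 to 56 genes in each other library, and 186 were under 0.5 times the lowest, against 7 to 34. The trend of each library's deviations with the GC content of the transcripts ran from a Spearman's rho across genes of −0.595 in control replicate 1 to 0.483 in control replicate 3, and from −0.518 to 0.324 in knockdown libraries. SK-Hep1 cells are described as endothelial-derived, yet of 8 endothelial markers *KDR* was listed at 0 TPM in each library, *PECAM1* reached at most 0.01 TPM, and *ENG* was the only one tested. The summed level of the endothelial markers was between 64.95 and 88.29 TPM in control and between 62.77 and 82.98 TPM in knockdown cells, mostly from *ENG*. Below the filter, *TIE1* reached 3.08 TPM in control replicate 2, and *VWF* was at most 0.13 TPM in control and at least 0.3 TPM in knockdown libraries. The hepatocyte markers *ALB*, *APOB*, *TTR*, *HNF4A* and *FGA* were listed at 0 TPM in each library, and the 10 hepatocyte markers summed to between 19.75 and 25.07 TPM in control and between 28.68 and 38.11 TPM in knockdown cells, mostly from *SERPINA1*. Of 4 leukocyte markers, *PTPRC* and *CD3E* were listed at 0 TPM, whereas *CD68*, which other cells also express, was between 28.41 and 66.76 TPM in control and between 106.52 and 129.11 TPM in knockdown cells. Of 7 mesenchymal markers, 6 were tested and none passed the threshold in limma, where 1.04% of all tested genes did. At an unadjusted p under 0.05, *VIM* was higher (log2 fold change 0.25) and *SPARC* (−0.30), *THY1* (−0.54) and *PDGFRB* (−1.22) were lower. Such a p was found in 16.8% of all tested genes in either direction. The summed level of the 7 markers, most of it *VIM*, was between 5422 and 5638 TPM in control and between 5720 and 6163 TPM in knockdown cells. The part of these markers in the results was not tested, and in bulk RNA more cells of a type and more RNA per cell cannot be told apart.

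Of the 7 tested members, *APLN* alone passed an adjusted p of 0.05, and it rose in knockdown cells. No member passed it in the other direction in limma, where no member that was lower had an unadjusted p under 0.05 and 3 that were higher did, where 16.8% of all tested genes had one in either direction. Of all 14020 tested genes, 1.04% passed the threshold, and 0.371% did so as higher in knockdown cells. The median log2 fold change was 0.63 over the 7 tested members against −0.04 over all tested genes. In 3 of the 7 (*VEGFA*, *VEGFC* and *APLN*) all knockdown values exceeded all control values, which held for 9.89% of all tested genes. The opposite order was seen in no member and in 13.4% of all tested genes, and groups without overlap in either direction in 23.3%. Single members were also compared by an exact two-sided permutation test of their TPM, which cannot go below p = 0.1 with 3 libraries against 3.

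**Figure D1:**
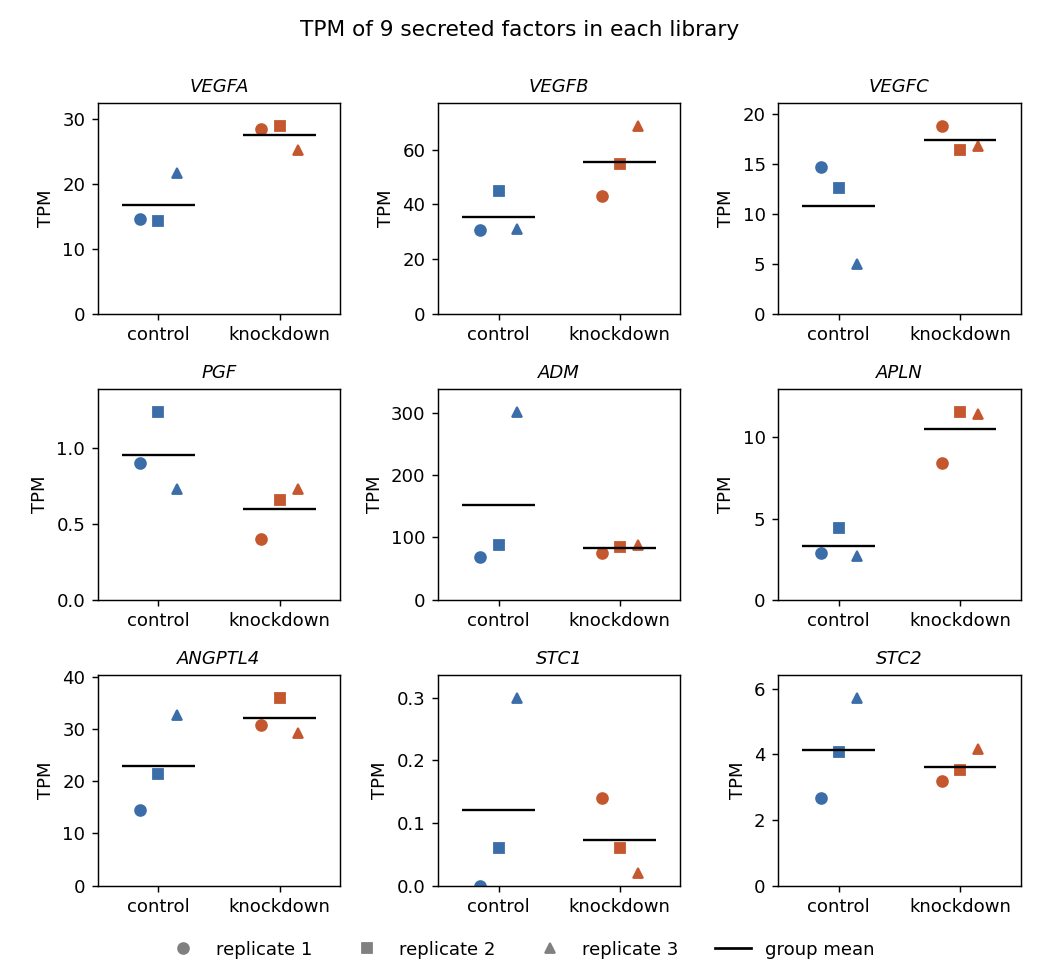
Level of each of the 9 secreted factors (TPM, linear axes from 0) in the 3 control and 3 knockdown libraries, with the replicate given by the marker and the group mean by a line. *APLN* lies between 2.67 and 4.4 TPM in control and between 8.45 and 11.59 TPM in knockdown libraries, and *ADM* reaches 301.45 TPM in control replicate 3 alone.

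Apelin is a short secreted peptide that acts on the G protein-coupled receptor APLNR in growing vessels. *APLN* (ENSG00000171388.12, chromosome X, 129645259 to 129654956 on the minus strand of hg38) had 2.89, 4.4 and 2.67 TPM in control against 8.45, 11.59 and 11.44 TPM in knockdown libraries. The lowest knockdown library was thus well above the highest control library. Its mean was 3.32 ± 0.942 TPM (SD, n = 3) in control and 10.5 ± 1.77 TPM (SD, n = 3) in knockdown cells, a ratio of 3.16. On the log2(TPM + 1) scale, which understates the change of low genes, the log2 fold change was 1.42 (standard error 0.24, 95% interval 0.86 to 1.98, adjusted p = 0.0429 from limma), and the exact permutation test gave p = 0.1. It stayed higher under every alternative, from 0.90 to 1.65, but the call was lost in some. With all 6 libraries its adjusted p in limma was 0.136 without a filter and 0.0533 with a mean of at least 5 TPM. Without control replicate 2 or 3, or knockdown replicate 1, 2 or 3, its adjusted p was 0.119, 0.0623, 0.121, 0.226 and 0.190, and over all alternatives it ran from 0.00269 to 0.226. Its log2 fold change lay between 1.31 and 1.59 when 1 library was left out. Calls over all tested genes went from 146 to 12 without control replicate 2 and to between 15 and 18 without 1 knockdown library, but were 160 without control replicate 3.

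VEGF-A is the main ligand of the receptors FLT1 and KDR. *VEGFA* (ENSG00000112715.26, chromosome 6, 43770184 to 43786487, plus strand) had 14.55, 14.19 and 21.65 TPM in control against 28.45, 28.94 and 25.27 TPM in knockdown libraries. The groups did not overlap, and control replicate 3 was nearest to the knockdown libraries. Means were 16.8 ± 4.21 TPM (SD, n = 3) in control and 27.6 ± 1.99 TPM (SD, n = 3) in knockdown cells, and the log2 fold change of 0.70 (standard error 0.21, 95% interval 0.22 to 1.19) did not pass the threshold (adjusted p = 0.152 from limma). It was called with each library's GC trend removed (0.73, adjusted p = 0.0403), where 8.17% of all tested genes were called and 3.01% as higher, and with limma's arrayWeights (0.89, adjusted p = 0.00341), where 23.0% of all tested genes were called. The adjusted p ran from 0.00341 to 0.468 over all alternatives.

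VEGF-B, a ligand of FLT1 with a role in fatty acid handling and vessel survival, was the most abundant VEGF ligand here in terms of TPM. *VEGFB* (ENSG00000173511.10, chromosome 11, 64234584 to 64239264, plus strand) had 30.46, 44.79 and 31.1 TPM in control against 43.16, 54.9 and 68.84 TPM in knockdown libraries. Control replicate 2 was above knockdown replicate 1, so the groups overlapped. Means were 35.5 ± 8.10 TPM (SD, n = 3) in control and 55.6 ± 12.9 TPM (SD, n = 3) in knockdown cells, with a log2 fold change of 0.63 (standard error 0.23, adjusted p = 0.231 from limma).

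VEGF-C acts mainly on FLT4 in lymphatic endothelium. *VEGFC* (ENSG00000150630.4, chromosome 4, 176683538 to 176792922, minus strand) had 14.73, 12.59 and 4.97 TPM in control against 18.85, 16.46 and 16.84 TPM in knockdown libraries. The groups did not overlap, and control replicate 3 was the lowest by far. The log2 fold change of 0.76 (standard error 0.35, adjusted p = 0.323 from limma) became 0.33 (standard error 0.18, adjusted p = 0.373) without control replicate 3, and the adjusted p ran from 0.0982 to 0.579 over all alternatives.

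Placental growth factor, a further ligand of FLT1, was low. *PGF* (ENSG00000119630.14, chromosome 14, 74941834 to 74955626, minus strand) had 0.9, 1.24 and 0.73 TPM in control against 0.4, 0.66 and 0.73 TPM in knockdown libraries. The groups touched at 0.73 TPM, and testing it without a filter gave a log2 fold change of −0.29 (standard error 0.18, adjusted p = 0.616 from limma over 27381 genes). The 4 VEGF ligands together came to 60.64, 72.81 and 58.45 TPM in control against 90.86, 100.96 and 111.68 TPM in knockdown libraries. *VEGFB* made up between 50.2% and 61.5% of this sum in control and between 47.5% and 61.6% in knockdown libraries, and *VEGFA* between 19.5% and 37.0%, and between 22.6% and 31.3%. *PGF*, a small share, went from 1.25% or more in control to 0.654% or less in knockdown libraries. The sum of the 4 ligands and the share of *PGF* thus did not overlap between the groups, whereas the shares of *VEGFA*, *VEGFB* and *VEGFC* did. A share also falls when the sum rises, and the level of *PGF* itself met at 0.73 TPM, so its share is no separate result.

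Angiopoietin-like 4 inhibits lipoprotein lipase and is a target of both HIF and the PPAR nuclear receptors. *ANGPTL4* (ENSG00000167772.12, chromosome 19, 8363289 to 8374370, plus strand) had 14.5, 21.42 and 32.56 TPM in control against 30.79, 35.96 and 29.24 TPM in knockdown libraries. Control replicate 3 lay among the knockdown libraries, and the other control libraries lay below them. With all libraries its log2 fold change came to 0.54 (standard error 0.28, adjusted p = 0.378 in limma) and 0.82 (standard error 0.22, adjusted p = 0.123) without control replicate 3, but 0.26 (adjusted p = 0.493) without control replicate 1. With arrayWeights it was called (0.65, adjusted p = 0.0216). The adjusted p ran from 0.0216 to 0.702 over all alternatives.

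Stanniocalcins are secreted glycoproteins that inhibit the IGFBP proteases PAPPA and PAPPA2. *STC2* (ENSG00000113739.11, chromosome 5, 173314723 to 173328447, minus strand) had 2.66, 4.06 and 5.73 TPM in control against 3.18, 3.53 and 4.16 TPM in knockdown libraries, so all knockdown libraries lay within the control range. Its log2 fold change came to −0.12 (standard error 0.28, 95% interval −0.76 to 0.52, adjusted p = 0.871 from limma) and 0.10 without control replicate 3. *STC1* (ENSG00000159167.12, chromosome 8, 23841929 to 23854806, minus strand) was at most 0.3 TPM in any library, the highest being control replicate 3.

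**Figure D2:**
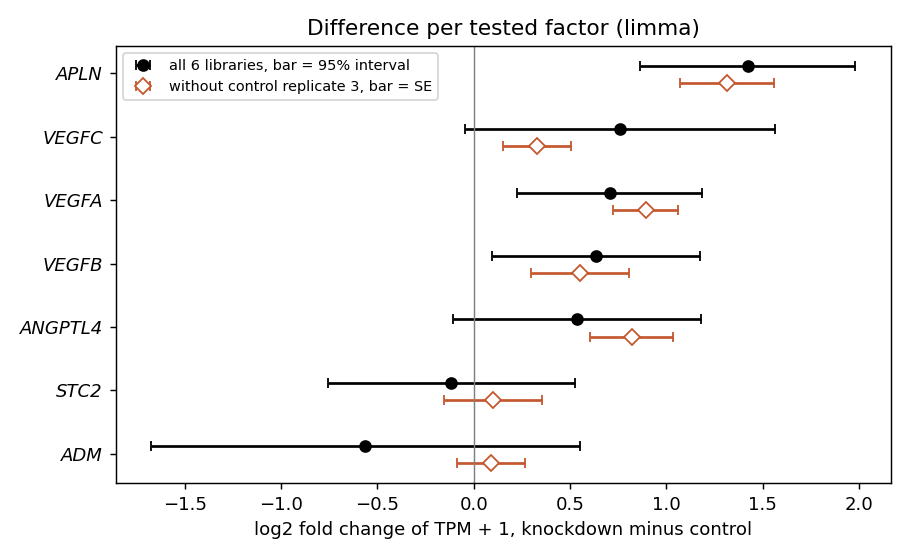
Log2 fold change of TPM + 1 (knockdown minus control) of the 7 tested factors from limma, with all 6 libraries (filled points, 95% intervals) and without control replicate 3 (open points, standard errors). *APLN* is the highest in both fits, and *ADM* moves from −0.56 to 0.09.

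Adrenomedullin, a vasodilating peptide that acts on CALCRL with RAMP2 or RAMP3, differed from *VEGFA* in its pattern. *ADM* (ENSG00000148926.10, chromosome 11, 10305073 to 10307397, plus strand) had 68.07, 87.17 and 301.45 TPM in control against 74.15, 84.97 and 87.43 TPM in knockdown libraries. It was the most abundant member in every library, and control replicate 3 was 3.88 times the mean of the other control libraries, while all knockdown libraries lay between control replicates 1 and 3. Means were 152 ± 130 TPM (SD, n = 3) in control and 82.2 ± 7.06 TPM (SD, n = 3) in knockdown cells. The log2 fold change of −0.56 (standard error 0.48, 95% interval −1.68 to 0.55, adjusted p = 0.590 from limma) became 0.09 (standard error 0.18, adjusted p = 0.825) without control replicate 3, where the knockdown mean was 1.06 times that of control replicates 1 and 2. The sign of its difference thus rests on 1 library. Over all alternatives its adjusted p ran from 0.207 to 0.825.

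The difference between *ADM* and *VEGFA* within a library, both as log2(TPM + 1), was 2.15, 2.54 and 3.74 in control and 1.35, 1.52 and 1.75 in knockdown replicates 1, 2 and 3. All knockdown libraries were lower than all control libraries on this scale. The knockdown mean was 1.54 ± 0.20 (SD, n = 3) and the control mean 2.81 ± 0.83 (SD, n = 3), a difference of −1.27 (exact two-sided permutation test, p = 0.1, the smallest that 3 against 3 allow), or of −0.80 without control replicate 3. The pair was picked with earlier results of these data known.

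Other genes that were high in control replicate 3 were looked up after their values were seen, in the list of 12 AP-1 and immediate early genes, which respond within minutes to serum, stress or growth factors. In this library, 7 of the 12 (*FOS*, *FOSB*, *EGR1*, *DUSP1*, *JUNB*, *ATF3* and *IER2*) were over 2 times the highest of the other libraries at TPM + 1, as was *ADM* with 3.42 times. *FOS* had 22.24, 29.84 and 411.45 TPM in control against 9.08, 11.4 and 9.83 TPM in knockdown libraries, and *EGR1* had 15.36, 15.53 and 207.93 TPM, and 15.09, 17.17 and 14.47 TPM. The 12 genes summed to 2926 TPM in control replicate 3 and to between 909.58 and 1238 TPM in the other 5 libraries. Among the other secreted factors, *IGFBP3*, a carrier of insulin-like growth factors, had 265.62, 250.37 and 621.71 TPM in control and between 241.6 and 271.76 TPM in knockdown libraries. The part of these genes or of the library in the value of *ADM* was not tested. None of the 12 genes passed the threshold in limma, where 1.04% of all tested genes did. An unadjusted p under 0.05 was found in 1 higher and 2 lower genes, against 16.8% of all tested genes in either direction. Without control replicate 3, *FOS* (−1.28, adjusted p = 0.0456) and *FOSB* (−2.21, adjusted p = 0.0303) were called lower, with adjusted p over all alternatives from 0.0337 to 0.470 and from 0.0207 to 0.417. Of the highest genes of this list, *FOSL1* had 382 ± 82.4 TPM (SD, n = 3) in control and 441 ± 38.1 TPM (SD, n = 3) in knockdown cells, and *JUN* had 271 ± 136 and 188 ± 18.9 TPM. The log2 fold change of *JUN*, −0.41, became −0.03 without control replicate 3.

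**Figure D3:**
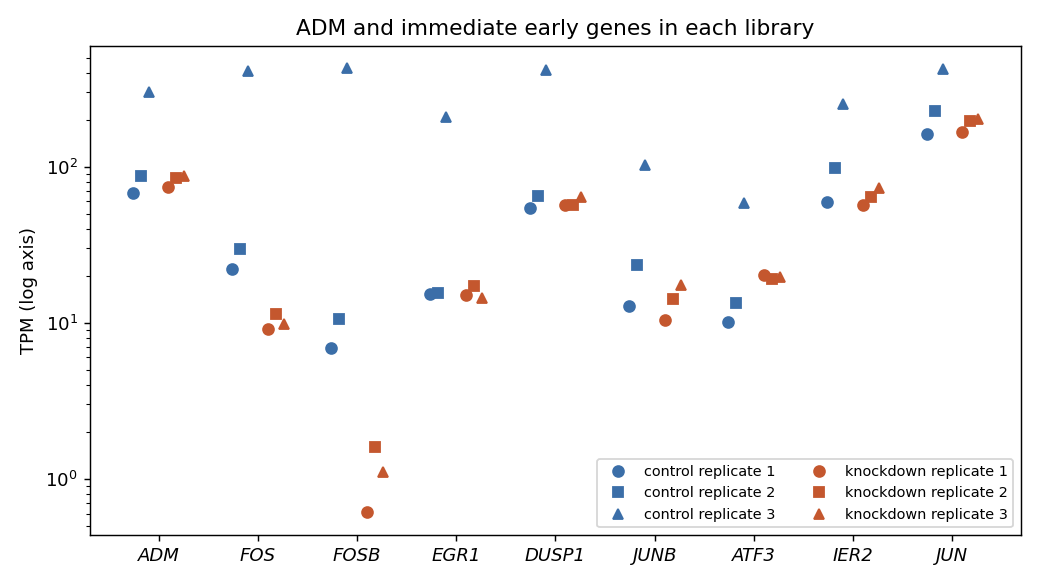
Level (TPM, log axis) of *ADM* and of 8 of the 12 listed immediate early genes in each library, with colour for the group and marker for the replicate. The 8 genes were picked after their values were seen. Control replicate 3 is the highest library for each gene shown, with *ADM* at 301.45 and *FOS* at 411.45 TPM, whereas the other libraries of *ADM* lie between 68.07 and 87.43 TPM. *FOSL1*, *FOSL2*, *JUND* and *IER3*, not shown, were highest in other libraries, and *FOSL1* was lowest in control replicate 3 (312.43 TPM).

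The receptors of the members were mostly not expressed in these cells. Of 11 receptors and co-receptors, *KDR*, *RAMP2*, *RAMP3* and *APLNR* were listed at 0 TPM in each library, *FLT1* reached at most 0.04 and *FLT4* at most 0.06 TPM, and *CALCRL* at most 0.39 TPM. *ACKR3*, a scavenging receptor of adrenomedullin, had 0.07, 0.05 and 0 TPM in control against 1.65, 0.32 and 0.36 TPM in knockdown libraries, below the filter. The neuropilins, co-receptors of the VEGF ligands, were the 2 that were tested. *NRP1* had 40.0 ± 15.9 TPM (SD, n = 3) in control and 33.6 ± 4.44 TPM (SD, n = 3) in knockdown cells, and *NRP2* had 16.2 ± 3.45 and 10.5 ± 2.77 TPM, with log2 fold changes of −0.19 and −0.58 (adjusted p = 0.766 and 0.281 from limma). With arrayWeights *NRP2* was called lower (adjusted p = 0.00848), and its adjusted p ran from 0.00848 to 0.646 over all alternatives.

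Of 15 genes for the processing and partners of the members, 9 were tested, and *FURIN* fell, where 0.67% of all tested genes were called lower. Furin is a proprotein convertase that cleaves the VEGF-C precursor among many others. *FURIN* had 22.44, 31.3 and 20.6 TPM in control against 8.07, 11.36 and 9.8 TPM in knockdown libraries, with no overlap and a log2 fold change of −1.25 (standard error 0.22, adjusted p = 0.0491 from limma). Its adjusted p was 0.179 without control replicate 2 and between 0.173 and 0.184 without 1 of the knockdown libraries. The call was also lost with a pseudocount of 5 (adjusted p = 0.0568), without a filter (0.126) and with eBayes without trend (0.0694), and the adjusted p ran from 0.00148 to 0.184 over all alternatives. *PAM*, the enzyme that amidates adrenomedullin, had 77.79, 55.62 and 40.84 TPM in control against 102.69, 99.74 and 82.57 TPM in knockdown libraries, with a log2 fold change of 0.74 (adjusted p = 0.183) that passed the threshold without control replicate 1 (0.97, adjusted p = 0.0391), with arrayWeights and with a replicate block (adjusted p = 0.0434), over a range from 0.00617 to 0.494. *IGFBP4*, the binding protein cut by PAPPA, had 188 ± 56.1 TPM (SD, n = 3) in control and 141 ± 23.1 TPM (SD, n = 3) in knockdown cells. *LPL* and *GPIHBP1*, the lipase that ANGPTL4 inhibits and its anchor on endothelium, and *APELA*, the other ligand of APLNR, were listed at 0 TPM.

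Of 33 other secreted angiogenic factors, 18 were tested, 9 with a positive and 9 with a negative log2 fold change and a median of 0.03. *THBS1*, which encodes thrombospondin 1, an inhibitor of angiogenesis, was the only one called, where 0.67% of all tested genes were called lower. At an unadjusted p under 0.05 in limma, 2 were higher and 3 lower, against 16.8% of all tested genes in either direction. *THBS1* fell from 183.76, 169.22 and 156.64 TPM in control to 79.85, 76.01 and 59.44 TPM in knockdown libraries, a log2 fold change of −1.24 (standard error 0.17, adjusted p = 0.0252 from limma). Leaving out control replicate 2 gave an adjusted p of 0.130, and leaving out knockdown replicate 1, 2 or 3 gave 0.0865, 0.138 and 0.126. *CCN1*, the most abundant of them and a matrix protein, had 939 ± 95.8 TPM (SD, n = 3) in control and 840 ± 64.3 TPM (SD, n = 3) in knockdown cells. Chosen after their values were seen, the chemokine *CXCL8* had 9.49, 7.7 and 5.39 TPM in control against 21, 19.48 and 16.5 TPM in knockdown libraries (log2 fold change 1.25, adjusted p = 0.0556), and *PDGFB*, a growth factor for pericytes, had 4.62, 5.19 and 2.64 TPM and 0.61, 1.49 and 0.69 TPM (−1.41, adjusted p = 0.0875). *PDGFB* was called lower with a replicate block (adjusted p = 0.0407), the block with the GC trend removed (0.0484) and arrayWeights (0.00653), with an adjusted p of up to 0.276 among the alternatives. Both had groups without overlap, and *CXCL8* passed the threshold with median-of-ratios scaling (adjusted p = 0.0369) and 7 other alternatives, while its adjusted p ran from 0.00139 to 0.252 over all of them.

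The secreted members were set beside 28 intracellular and membrane genes of the hypoxia response, of which 25 were tested. Of these, 10 rose and none fell at an adjusted p under 0.05 in limma, against 0.371% of all tested genes called higher. The counts at an unadjusted p under 0.05 were 18 higher and 1 lower, against 16.8% of all tested genes in either direction. The median log2 fold change was 0.84. This list was chosen with earlier results of these data known, so its counts are no independent evidence. The 5 called genes with the highest log2 fold changes were *PFKFB4* (2.46), *BNIP3* (2.04), *P4HA1* (1.79), *PDK1* (1.75) and *DDIT4* (1.45), which act in glycolysis, mitophagy, collagen hydroxylation, pyruvate entry and mTORC1 inhibition. *BNIP3* had 108.33, 97.93 and 100.68 TPM in control against 493.87, 439.25 and 348.7 TPM in knockdown libraries, without the high value of control replicate 3 seen in *ADM*. The 10 became 1 when control replicate 2 was left out, 1, 1 and 2 when knockdown replicate 1, 2 or 3 was, and 11 and 9 for control replicates 1 and 3. Only *APLN* of the secreted members had a log2 fold change in the range of these called genes, from 1.24 to 2.46. The threshold itself leaves out smaller changes, so this range does not set the other members apart from the list. Uncalled genes of the list, such as *HK2* (0.79) and *NDRG1* (0.71), lay near *VEGFC* (0.76) and *VEGFA* (0.70). Of the 25 tested genes of the list, 22 had a positive log2 fold change.

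No regulator and no gene of the other routes to these factors was called, where 1.04% of all tested genes were. Lists of this size would mostly hold no call at that share, so the absence of calls does not show unchanged genes. None of 9 tested hypoxia regulators passed the threshold in limma. An unadjusted p under 0.05 was found in 16.8% of all tested genes in either direction, and among the regulators in 1 lower gene. This was *ARNT*, with 20.43, 22.63 and 17.33 TPM in control against 13.09, 12.91 and 12.08 TPM in knockdown libraries (log2 fold change −0.62, adjusted p = 0.149 from limma). The groups did not overlap for *ARNT* and *CREBBP*, both lower, and for *HIF1AN*, which was higher, where 23.3% of all tested genes had no overlap in either direction. *HIF1A* had 122.52, 82.96 and 53.04 TPM in control against 125.58, 102.67 and 86.78 TPM in knockdown libraries, and *EGLN2*, a HIF hydroxylase, had 90.2 ± 34.4 TPM (SD, n = 3) and 60.2 ± 14.9 TPM (SD, n = 3). HIF activity is set mainly at the protein level, which was not measured. Of 10 tested PPAR regulators and targets, none was called and 1 gene in each direction had an unadjusted p under 0.05, against 16.8% of all tested genes. These were *FABP4* (higher, log2 fold change 0.75) and *CPT1A* (lower, −0.77), whose groups did not overlap. Groups without overlap were seen in 1 higher and 2 lower genes of this list, against 23.3% of all tested genes in either direction. *ACADVL* had 205 ± 84.2 TPM (SD, n = 3) in control and 128 ± 19.4 TPM (SD, n = 3) in knockdown cells, and *PPARD* had 34.6 ± 6.96 and 33.9 ± 4.91 TPM. Control replicate 3 was the highest library for *ACADVL* (299.02 TPM), and the log2 fold change of *ACADVL*, −0.61, became −0.30 without that library. *ATF4* and 7 tested targets, a route known for *STC2* and *VEGFA*, were not called. At an unadjusted p under 0.05, 2 were higher and 1 lower, against 16.8% of all tested genes in either direction. The higher were *SESN2* (log2 fold change 1.01, adjusted p = 0.0666 from limma) and *TRIB3* (0.61, adjusted p = 0.185), and the lower was *PHGDH*. Of the 8 tested genes of this list, 5 had a positive log2 fold change, and the median was 0.40. *ATF4* had 334 ± 59.7 and 285 ± 4.24 TPM, and *PHGDH*, a serine synthesis enzyme, had 148 ± 33.2 and 74.0 ± 13.2 TPM (SD, n = 3 each; log2 fold change −0.98, adjusted p = 0.0820 from limma). *PHGDH* was called lower with a replicate block (adjusted p = 0.0347), the GC trend removed (0.0336), both (0.0409) and arrayWeights (0.00212), and its adjusted p reached 0.274 among the alternatives.

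**Figure D4:**
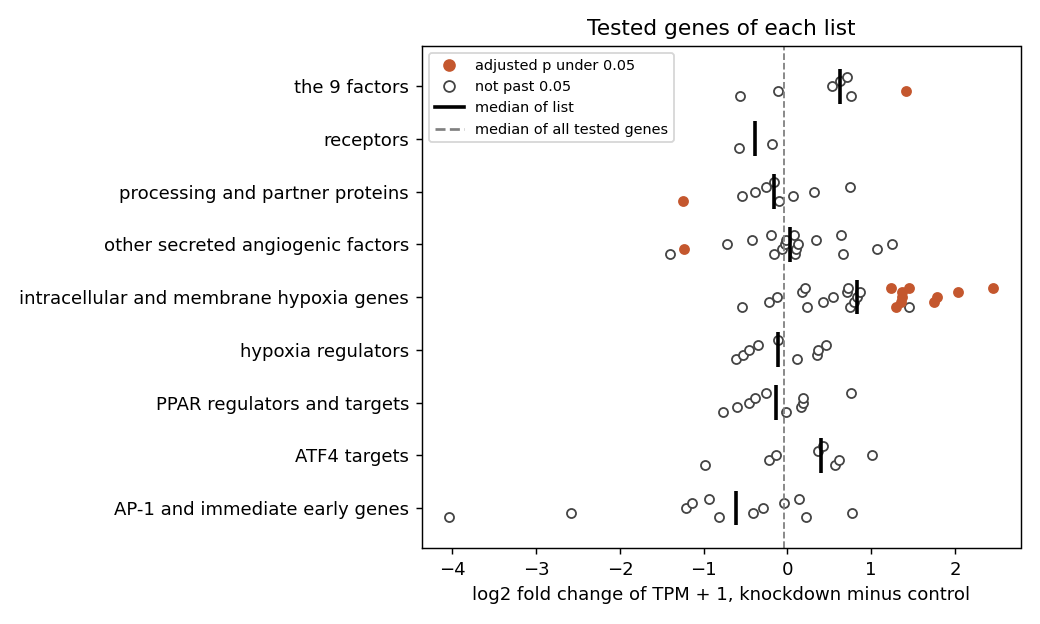
Log2 fold change of TPM + 1 (knockdown minus control) of the tested secreted factors and of the tested genes of 8 lists, with filled points for an adjusted p under 0.05, a bar at each list's median and a dashed line at the median of all tested genes (−0.04). The 10 called hypoxia genes lie between 1.24 and 2.46, and *APLN* is the only filled point among the secreted factors.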

How the data were processed

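RNA–Seq of 6 SK-Hep1 libraries was analysed from gene-level TPM, deposited by the authors with 2 decimals. The methods name fastp, STAR and RSEM, whereas the submitters' processing notes name fastp, HISAT2 (2.0.5) and hg38, so the aligner behind the deposited TPM is not settled. All 62700 identifiers matched GENCODE Release 44, which gave symbols, positions and transcript GC content (longest transcript), although the methods name another release. Gene-level TPM keep no read number and do not show strand or isoforms.

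Values were analysed as log2(TPM + 1) with limma 3.58.1 in R 4.3.3 (eBayes with trend, 2-sided, no replicate block) over the 14020 genes whose mean reached 1 TPM, with Benjamini–Hochberg adjustment over all of them. No scaling was added. Simulated data took each gene's mean and its SD within groups, with all values drawn independently. Unlike the real data, they held no GC trend and no library that stood apart, so recovery in the real data may differ. In them, 14 of 200 genes (7%) changed by 1 on the log2 scale were recovered among 13759 genes, and 157 of 200 (78.5%) changed by 2 among 13753 genes. The members, lists and tests were chosen with earlier results of these data known, so no list is independent evidence. By a rule set beforehand, the text names all members, up to 5 called genes per list and the 2 highest genes of lists with fewer than 2 calls. All other genes named, such as receptors and partners near 0 TPM, markers and single list genes, were picked once their values were known. Alternatives were other pseudocounts, filters and scalings, removal of each library's GC trend (loess, span 0.3), arrayWeights, eBayes without trend, a replicate block and each library left out. GC trends, fits and figures used R and Python 3.11.15.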

Additional observations from a re-analysis of the deposited data

How the results depend on the processing

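The number of secreted members called, 1, was 0 without a filter and with a mean of at least 5 TPM (3 members had an unadjusted p under 0.05 in limma in each), 2 with the GC trend removed (*APLN* and *VEGFA*) and 3 with arrayWeights (*ANGPTL4* as well), and ran from 0 to 1 when 1 library was left out, staying at 1 only without control replicate 1. In those fits, 2 or 3 members had an unadjusted p under 0.05. The number of listed pathway genes called, 12, was 1 without a filter, 24 with the GC trend removed, 24 when a replicate block was added, 26 when both were done and 41 with arrayWeights, and ran from 1 to 16 when 1 library was left out. Over all genes, 146 calls became 13 without a filter, 1145 with the GC trend removed, 3218 with arrayWeights and 861 with a replicate block, and lay between 12 when control replicate 2 was left out and 489 when control replicate 1 was. *RAB30-DT* was lower but not called in all fits, from −0.70 to −0.24, and *ADM* against *VEGFA* stayed negative, from −1.60 to −0.80. Signs turned without control replicate 3 for *ADM* (0.0885), *STC2* (0.10) and *EGR1* (0.0081), whose values ran from −0.98 to 0.0885, from −0.34 to 0.10 and from −1.83 to 0.0081 when 1 library was left out. They also turned for *NRP1* with arrayWeights (0.0944) and without control replicate 1 (−0.37 to 0.11), for *CCN1* (0.0340) and *ATF4* (0.0015) with quantile normalization, and for *PPARD* with median-of-ratios scaling (0.0034), quantile normalization (0.0804), and the GC trend removed without or with a replicate block (0.0369 in both), and when 1 library was left out (−0.19 to 0.10). None of these genes was called in the fit with all libraries, and the cause of the other changes was not tested. Among the single genes, 506 values kept their direction and side of the threshold, 28 became stronger, 45 weaker and 14 turned. Libraries of the same replicate number had deviations from their group means with correlations of 0.41, 0.0359 and 0.279, and 4 of 6 libraries correlated best with their own number. The GC trend rose with the replicate number in both groups, with rho of −0.595, 0.292 and 0.483 in control and −0.518, 0.0165 and 0.324 in knockdown libraries. The main fit was set without a replicate block, and whether libraries of the same number were paired was not tested. With a replicate block, *APLN* was the only member called (adjusted p = 0.0239). The TPM hold no depth, so counting error, which matters most for *PGF* and *STC1*, is unknown.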

Other observations

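The genes whose log2(TPM + 1) followed *ADM* and *VEGFA* most closely over the 6 libraries were named by a rule, as a description across libraries that fall into groups, with no test. For *ADM* they were *KLF4*, *ATAD3B*, *PRR22*, *RRAD* and *CCDC96* (Pearson's r from 0.993 to 0.998), each highest in control replicate 3. *KLF4*, a transcription factor induced by serum and stress, had 2.94, 4.36 and 21.96 TPM in control and 3.51, 3.76 and 4.01 TPM in knockdown replicates 1, 2 and 3, and *RRAD*, a small GTPase, had 0.88, 1.4 and 19.1 TPM, and 1.11, 1.54 and 1.16 TPM. For *VEGFA* they were *BCL6*, *HK2*, *DHRS2*, *JUND* and *DPCD* (r from 0.985 to 0.994). *HK2*, which encodes a hexokinase and is itself on the hypoxia list, had 22.08, 25.31 and 37.7 TPM in control and 50.92, 52.95 and 42.29 TPM in knockdown replicates 1, 2 and 3, and *JUND*, an AP-1 subunit, had 63.36, 72.07 and 101.09 TPM, and 132.92, 137.47 and 127.58 TPM. In both, as in *VEGFA*, control replicate 3 was the control library nearest to the knockdown libraries. Neither passed the threshold, with adjusted p of 0.145 and 0.112 from limma. All genes named here were picked by their correlation with *ADM* or *VEGFA* over these libraries. The library pattern that they share with *ADM* or *VEGFA* is thus no separate result.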
